A study of Mus musculus with 15 samples.

Results

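The genes described here are 10 scavenger receptors, Olr1, Cd36, Msr1, Marco, Scarb1, Scarf1, Colec12, Stab1, Stab2 and Cd163, out of the 57186 genes in the count table. They were chosen by name, as receptors for particles or lipoproteins of classes A, B, E, F and H together with the haemoglobin receptor Cd163, and each symbol matched 1 Ensembl identifier. RNA-seq was performed on RAW 264.7 cells, a mouse macrophage line that grows attached and takes up particles readily. Cells received solid nonporous silica particles of nominally 100 nm (SNP100, 50 µg/mL) or 50 nm (SNP50, 25 µg/mL), mesoporous particles (MSNP, 200 µg/mL), hollow mesoporous particles (HMSNP, 200 µg/mL) or no particles (Control). Each of the 5 groups had 3 libraries, taken after 6 h, and both porous particles were nominally 100 nm as well. Each dose was the highest the study found nontoxic for that particle, so particle type and dose changed together except between MSNP and HMSNP. All cells were the same line, and the labels give no genetic change in any group.

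Scavenger receptors bind polyanionic ligands such as oxidised or acetylated low-density lipoprotein, bacterial surfaces, dying cells and mineral particles. Class A members carry a collagen-like stalk, CD36 and SR-BI form class B with a large loop held between a pair of membrane anchors, and LOX-1 is a C-type lectin. In macrophages they feed particles and lipid into endosomes and lysosomes, and MARCO and SR-A (Msr1) are the receptors most often linked to uptake of uncoated silica.

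Total counts per library ran from 29369934 to 42617812, and levels are given as normalised counts per 10⁶ reads (CPM). All 8 macrophage markers checked were above 3 counts in every library, with a summed level of 14865 to 18958 CPM in Control and a lower 11679 to 12577 CPM in MSNP. Most of that sum was Lyz2, at 12178 ± 2506 CPM in Control and 9308 ± 454 CPM in MSNP (SD, n = 3), and Csf1r stood at 2798 ± 394 and 1789 ± 4.19 CPM. The means of Cd14, Itgam and Mertk were lower in MSNP as well, but those of Fcgr3 (25.1 CPM in Control and 46.7 CPM in MSNP), Ptprc (153 and 167 CPM) and Adgre1 (134 and 137 CPM) were not. Markers of fibroblasts and lymphocytes summed to at most 0.0889 and 0.136 CPM in any library. Control replicate 3 stood apart from the other controls: its log2 difference from them had a median of 0.61 in the shortest genes and -0.60 in the longest, where no treated library reached more than 0.143 in size from its own group. The names of the libraries carry a different number in each group, whose meaning is not given in the sources used here, and this number and the treatment cannot be told apart. Nothing in the labels says that libraries of a group came from separate cultures, so p-values measure the spread between these libraries, which may be technical.

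Of the 10 receptors, 7 were above 3 counts in every library, Stab2 passed the filter on low counts through MSNP, and Marco and Cd163 had 0 counts in all 15 libraries. A count of 0 allows up to 3 counts, which was 0.0687 to 0.101 CPM depending on the library and covers counting error only. Marco, on chromosome 1, encodes a class A receptor of tissue macrophages, and Cd163, on chromosome 6, encodes the haemoglobin-haptoglobin receptor. Neither was detectable at this depth, in untreated cells or with any particle.

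Per kilobase of exon, the order of levels in Control was Msr1 (94.3 ± 6.997 CPM per kb), Colec12 (61.2 ± 8.57), Cd36 (19.3 ± 0.780), Scarb1 (8.80 ± 0.595), Olr1 (6.56 ± 1.65), Stab1 (4.27 ± 1.20) and Scarf1 (0.515 ± 0.113), with SD and n = 3. The libraries of Olr1 and Stab1 overlapped, and those of the other neighbours in this order did not. With the length of each gene's canonical transcript in place of all its annotated exons, a choice made after seeing the data, the order was the same but the libraries of Colec12 (mean 78.4 CPM per kb) and Cd36 (69.5 ± 2.81) overlapped as well. Msr1 and Colec12 together made up 75.0% ± 1.17 of the CPM summed over the receptors in Control and 83.4% ± 0.264 in MSNP. Their share was 82.1% ± 0.243 with SNP100, 82.4% ± 0.516 with SNP50 and 75.0% ± 0.577 with HMSNP. The share of Cd36 was 14.97% ± 0.885 in Control, 9.40% ± 0.445 with SNP100, 8.46% ± 0.526 with SNP50, 10.1% ± 0.253 with MSNP and 16.8% ± 0.543 with HMSNP. Control libraries were more spread than treated ones for Olr1, with an SD on the log2 scale of 0.39 in Control and 0.12 pooled over the treated groups, and for Stab1 (0.45 and 0.13) and Colec12 (0.21 and 0.04). The same held for Scarf1 (0.33 and 0.18), Msr1 (0.11 and 0.05) and Scarb1 (0.10 and 0.05). For Cd36 the order was the other way (0.06 and 0.09).

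Olr1 and Cd36 were the receptors that differed from Control with every particle. Their promoters are shown because of this, as 250 bases before and 50 bases after the RefSeq start site on GRCm38.p6, a different build from the GRCm39 of the counts. The Olr1 window lies at chr6:129507116-129507415 and that of Cd36 at chr5:17835847-17836146, both on the minus strand, and capitals mark a match to the AP-1 motif TGAGTCA.
Olr1: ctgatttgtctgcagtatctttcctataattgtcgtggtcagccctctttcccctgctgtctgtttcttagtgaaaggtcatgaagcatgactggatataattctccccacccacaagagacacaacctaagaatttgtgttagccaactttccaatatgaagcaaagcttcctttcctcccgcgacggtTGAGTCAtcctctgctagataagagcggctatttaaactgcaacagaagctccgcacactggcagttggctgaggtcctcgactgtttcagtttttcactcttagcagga
Cd36: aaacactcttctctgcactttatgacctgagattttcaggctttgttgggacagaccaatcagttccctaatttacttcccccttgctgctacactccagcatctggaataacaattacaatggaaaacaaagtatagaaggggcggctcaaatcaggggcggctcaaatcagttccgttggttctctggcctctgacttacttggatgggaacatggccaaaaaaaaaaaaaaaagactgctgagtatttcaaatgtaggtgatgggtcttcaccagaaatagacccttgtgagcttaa

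The AP-1 match lay at position -60 from the Olr1 start site, read on the strand shown (on the other strand the motif reads TGACTCA). Such a match occurred in 5.20% of the 32851 RefSeq promoters. It was in 1 of the 6 receptor promoters searched, those of Olr1, Cd36, Marco, Cd163, Stab1 and Stab2. Chromosome 18, where Colec12 lies, was left out of that search, and no window was found for Msr1, Scarb1 or Scarf1. The letters TGACNNNGC (antioxidant response element core, in 12.4% of all promoters), CACGTG (E-box, 7.15%), GAGGAAGT (PU.1, 3.20%) and TATAAA (13.6%) were in none of the 6 on either strand. The table holds 1 start for Cd36, for which the annotation lists 67 transcripts, and a match describes letters only.

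Olr1 (ENSMUSG00000030162, protein-coding, GRCm39 chromosome 6, 129462207 to 129484128, minus strand) encodes LOX-1, the lectin-like receptor for oxidised low-density lipoprotein. It was lower with every particle. The control libraries had 29.02, 31.2 and 18.8 CPM, and SNP100 had 9.52, 10.1 and 9.19 CPM. SNP50 had 6.99, 7.40 and 7.01 CPM. MSNP had 2.12, 2.48 and 2.28 CPM and HMSNP had 4.97, 6.21 and 6.21 CPM. Every treated library was below every control library, and the MSNP libraries were the lowest of all, at 64 to 92 reads each. Control replicate 3 was the lowest of the controls, and no treated group overlapped another.

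As a percentage of Control, the mean level of Olr1 was 36.5% with SNP100 and 27.1% with SNP50. With the porous particles it was 8.71% (MSNP) and 22.0% (HMSNP). In edgeR the log2 fold changes were -1.45 ± 0.15 (SE, adjusted p = 0.000463) in SNP100 and -1.88 ± 0.15 (adjusted p = 3.82e-05) in SNP50. They were -3.51 ± 0.17 (edgeR adjusted p = 1.00e-09) in MSNP and -2.18 ± 0.16 (edgeR adjusted p = 9.44e-07) in HMSNP. Among 11540 genes with a mean of at least 1 CPM, the rank of Olr1 from the lowest log2 fold change was 5 for SNP100, 4 for SNP50, 9 for MSNP and 12 for HMSNP. Without Control replicate 3 the falls were larger, at -1.65, -2.08, -3.70 and -2.37 in the same order. The calls for SNP100 and SNP50 were lost when only the 6 libraries of the comparison were fitted (edgeR adjusted p = 0.276 and 0.102), with the fold changes at -1.46 and -1.89. In such bulk samples fewer expressing cells and less RNA per cell cannot be told apart.

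**Figure D1:**
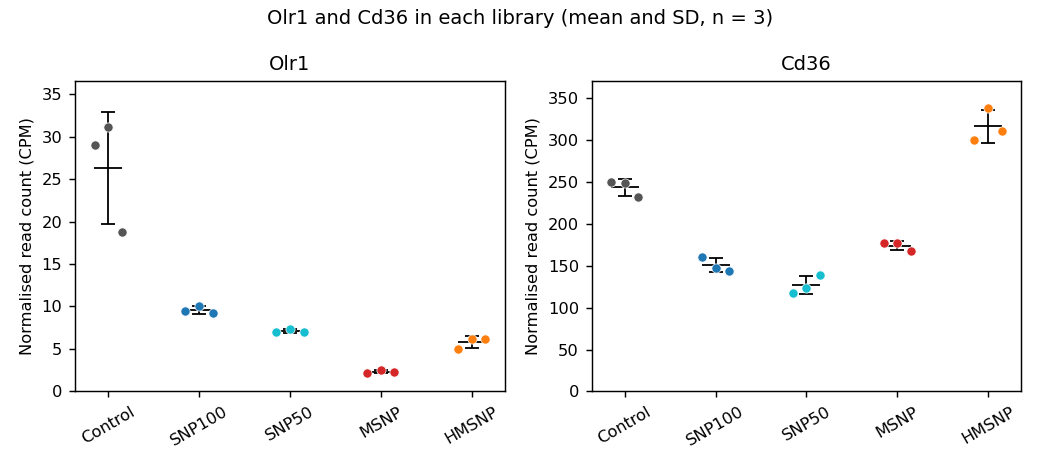
Normalised read count (CPM, y axis from 0) of Olr1 and Cd36 in each of the 15 libraries by group; points are libraries, the horizontal mark is the mean and the bars are SD (n = 3). Olr1 was between 18.8 and 31.2 CPM in Control and at most 10.1 CPM with any particle, and Cd36 was lower than Control in SNP100, SNP50 and MSNP and higher in HMSNP.

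Cd36 (ENSMUSG00000002944, protein-coding, GRCm39 chromosome 5, 17986432 to 18094067, minus strand) encodes the class B receptor for oxidised lipoprotein and long-chain fatty acids. It was lower with SNP100, SNP50 and MSNP and higher with HMSNP. The controls had 250.02, 248.7 and 232.3 CPM, and SNP100 had 160.4, 147.5 and 144.2 CPM. SNP50 had 117.9, 123.4 and 138.5 CPM. MSNP had 176.8, 177.6 and 167.7 CPM and HMSNP had 300.2, 338.5 and 310.7 CPM. No treated group overlapped Control, and HMSNP was the highest group with every library above 300 CPM.

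The log2 fold changes of Cd36 against Control were -0.69 ± 0.07 (SE, edgeR adjusted p = 0.000512) in SNP100 and -0.94 ± 0.07 (edgeR adjusted p = 3.55e-05) in SNP50. In MSNP the value was -0.49 ± 0.07 (edgeR adjusted p = 0.000164). In HMSNP it was 0.38 ± 0.07 (edgeR adjusted p = 0.00778). The rise in HMSNP lost its call in 3 settings: with a correction for the trend of each library with gene length (0.19, edgeR adjusted p = 0.173), with only the 6 libraries fitted (0.38, adjusted p = 0.239) and without HMSNP replicate 2 (0.33, adjusted p = 0.0528). The length correction used all annotated exons of Cd36, 12624 bases, where its canonical transcript has 3505, and the canonical length was not tested in it. The calls in SNP100 and SNP50 were also lost with only the 6 libraries fitted (edgeR adjusted p = 0.276 and 0.102). The 4 comparisons share the same 3 control libraries, so their values are set side by side and not correlated.

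MSNP and HMSNP, given at the same dose and time, were compared directly. Olr1 was 2.52-fold higher in HMSNP than in MSNP (log2 fold change 1.33 ± 0.18, edgeR adjusted p = 4.05e-05). Cd36 was 1.82-fold higher (0.86 ± 0.07, edgeR adjusted p = 4.99e-07). Both were called under all 22 alternatives. Particle dose differed in the other pairs: between MSNP (200 µg/mL) and SNP100 (50 µg/mL) Olr1 differed by -2.06 (edgeR adjusted p = 4.74e-07) and Cd36 by 0.21 (adjusted p = 0.0705, called in 4 of 22 alternatives). Between SNP50 (25 µg/mL) and SNP100 (50 µg/mL) Olr1 differed by -0.43, with a 95% interval of -0.76 to -0.10, and Cd36 by -0.25, with an interval of -0.41 to -0.09, and neither passed the test (edgeR adjusted p = 0.903 for both). Without Control replicate 3, Olr1 was called in this pair (edgeR adjusted p = 0.0378), as were 85 of the 19611 genes then tested, and the cause was not tested.

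**Figure D2:**
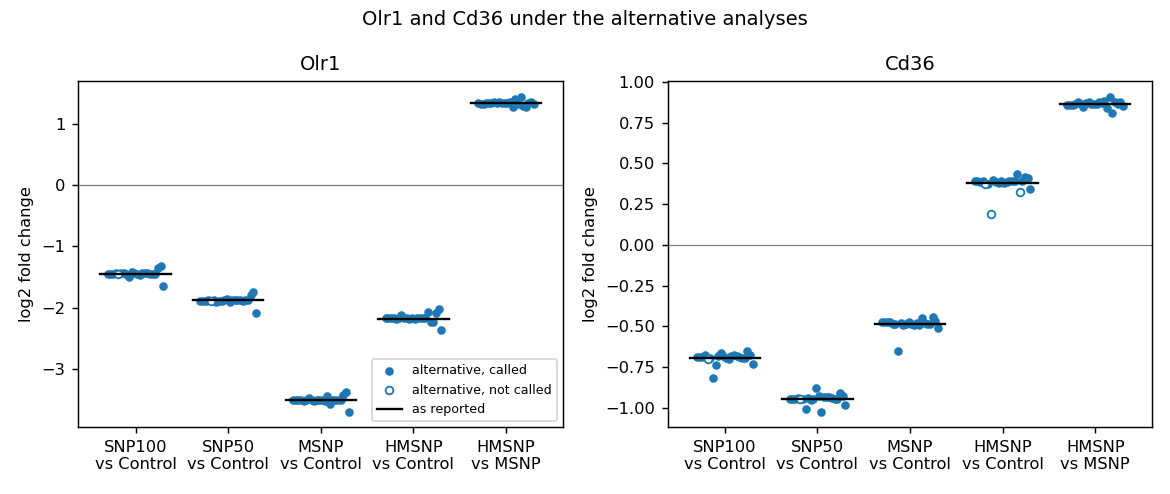
Fitted log2 fold changes of Olr1 and Cd36 (y axis) in 5 comparisons (x axis) under the 22 alternative analyses; filled points passed an adjusted p of 0.05, open points did not, and the black line is the reported value. Olr1 stayed below 0 against Control throughout, and 3 of the 22 alternatives gave no call for Cd36 in HMSNP.

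Msr1 (ENSMUSG00000025044, chromosome 8) and Colec12 (ENSMUSG00000036103, chromosome 18) are the class A members with the highest levels: the first encodes SR-A and the second the collectin SR-A-like receptor. Msr1 had 599.4, 641.9 and 553.1 CPM in Control and 720.8, 691.0 and 688.9 CPM in MSNP. SNP100 had 632.7, 627.9 and 623.6 CPM, SNP50 560.2, 588.5 and 591.5 CPM and HMSNP 661.5, 709.8 and 642.3 CPM. MSNP lay above Control in every library, with a log2 fold change of 0.23 ± 0.06 (SE, edgeR adjusted p = 0.0171). The call was lost without MSNP replicate 1 (edgeR adjusted p = 0.0705) and with only the 6 libraries fitted (adjusted p = 0.171). In the other 3 particles the log2 values of Msr1 were 0.07, -0.04 and 0.17, none called, with HMSNP called (edgeR adjusted p = 0.0180) only without Control replicate 2.

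Colec12 had 642.7, 708.9 and 534.5 CPM in Control, with Control replicate 3 the lowest, 744.2, 726.9 and 724.5 CPM in MSNP and 732.9, 753.5 and 727.2 CPM in HMSNP. SNP100 and SNP50, at 688 ± 9.10 and 652 ± 32.5 CPM (SD, n = 3), overlapped Control. No comparison called Colec12. Its log2 value was 0.22 in MSNP (edgeR adjusted p = 0.0682) and 0.23 in HMSNP (edgeR adjusted p = 0.114), and both were called without Control replicate 2. Without Control replicate 3 the values were 0.12 in MSNP and 0.13 in HMSNP. Under the gene length correction they were 0.11 in both, and neither setting called them. HMSNP and MSNP differed in Colec12 by 0.01, with a 95% interval of -0.16 to 0.19.

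Scarb1 (ENSMUSG00000037936, chromosome 5) encodes SR-BI, the high-density lipoprotein receptor. It had 87.3, 87.8 and 98.2 CPM in Control, 78.7, 76.3 and 75.6 CPM in MSNP and 101.6, 99.1 and 101.4 CPM in HMSNP. With the nonporous particles it had 83.8 ± 5.01 CPM (SNP100) and 84.4 ± 1.94 CPM (SNP50), and neither was called. All MSNP libraries were below, and all HMSNP libraries above, every control library. The log2 change was -0.25 ± 0.07 in MSNP (SE, edgeR adjusted p = 0.0125) and 0.15 in HMSNP (adjusted p = 0.192, called by DESeq2 and without Control replicate 3). HMSNP was higher than MSNP by 0.39 ± 0.07 (edgeR adjusted p = 0.000391, called under all 22 alternatives). The MSNP call was lost without MSNP replicate 2 or 3 and with only the 6 libraries fitted (edgeR adjusted p = 0.0527, 0.0553 and 0.151). Under the gene length correction the HMSNP value of Scarb1 was -0.00029. That correction used all annotated exons of Scarb1, 10346 bases, where its canonical transcript has 2539, and the canonical length was not tested in it.

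Scarf1 (ENSMUSG00000038188, chromosome 11) encodes SREC-I, a class F receptor for modified lipoprotein and apoptotic cells, and was low throughout. Control had 2.44, 1.71 and 2.66 CPM and MSNP had 1.09, 1.21 and 1.24 CPM, from 33 to 102 reads per library. SNP100, SNP50 and HMSNP had means of 1.48 ± 0.114, 1.78 ± 0.395 and 1.56 ± 0.134 CPM. In MSNP it fell by 0.93 ± 0.19 on the log2 scale (SE, edgeR adjusted p = 0.00203), a call kept under all 22 alternatives. The values in SNP100 (-0.62) and HMSNP (-0.54) were called only without Control replicate 2 (edgeR adjusted p = 0.0410 and 0.0143).

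Stab1 (ENSMUSG00000042286, chromosome 14) and Stab2 (ENSMUSG00000035459, chromosome 10) encode stabilins, class H receptors of macrophages and sinusoidal endothelium. Stab1 had 51.7, 50.4 and 29.8 CPM in Control, 27.6, 29.7 and 30.8 CPM in MSNP and 42.0, 42.1 and 50.5 CPM in HMSNP. Control replicate 3 lay within the MSNP range, so that Control and MSNP overlapped. The log2 change in MSNP was -0.58 ± 0.16 (SE, edgeR adjusted p = 0.0180), and it was -0.79 without Control replicate 3 and not called without Control replicate 1 (-0.43) or 2 (-0.47), without MSNP replicate 1 (-0.52) or 2 (-0.58), or with only the 6 libraries fitted (-0.58). HMSNP was higher than MSNP by 0.61 ± 0.16 (edgeR adjusted p = 0.0141), a call lost without MSNP replicate 1 or 2 or HMSNP replicate 3 (0.56, 0.62 and 0.52). SNP100 and SNP50, at 40.5 ± 5.30 and 44.0 ± 1.04 CPM (SD, n = 3), were not called, but SNP100 was without Control replicate 3 (-0.34, edgeR adjusted p = 0.0341). Stab1 shares 113 exon bases with Nt5dc2 on the opposite strand, which had 1583 to 2401 reads, and the strand setting of the read counting is not given in the sources used here.

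Stab2 had 0 counts in every Control, SNP100 and HMSNP library, 2, 1 and 1 counts in SNP50, and 17, 10 and 11 counts in MSNP. The mean in MSNP, 0.386 ± 0.155 CPM, was at least 4.52-fold higher than the 3 counts per library that 0 allows in Control, 4.77-fold against SNP100 and 4.90-fold against HMSNP. As it was tested only through the group where it is high, its call is given as a description only. In the same libraries the endothelial marker Vwf was 9.31 ± 1.14 CPM in MSNP against 3.83 ± 1.52 CPM in Control (SD, n = 3). Cdh5 had 0.205 CPM in MSNP and 0.323 CPM in Control. The 6 endothelial markers, nearly all Vwf, summed to 8.42 to 10.4 CPM in MSNP and 2.53 to 5.73 CPM in Control. Cldn5, Kdr, Tek and Lyve1 had at most 3 counts in any library. The labels name only the macrophage line, and a link between Vwf and Stab2 was not tested. Stab2 shares 416 exon bases with Gm16268 on the opposite strand, which had 0 to 5 reads.

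**Figure D3:**
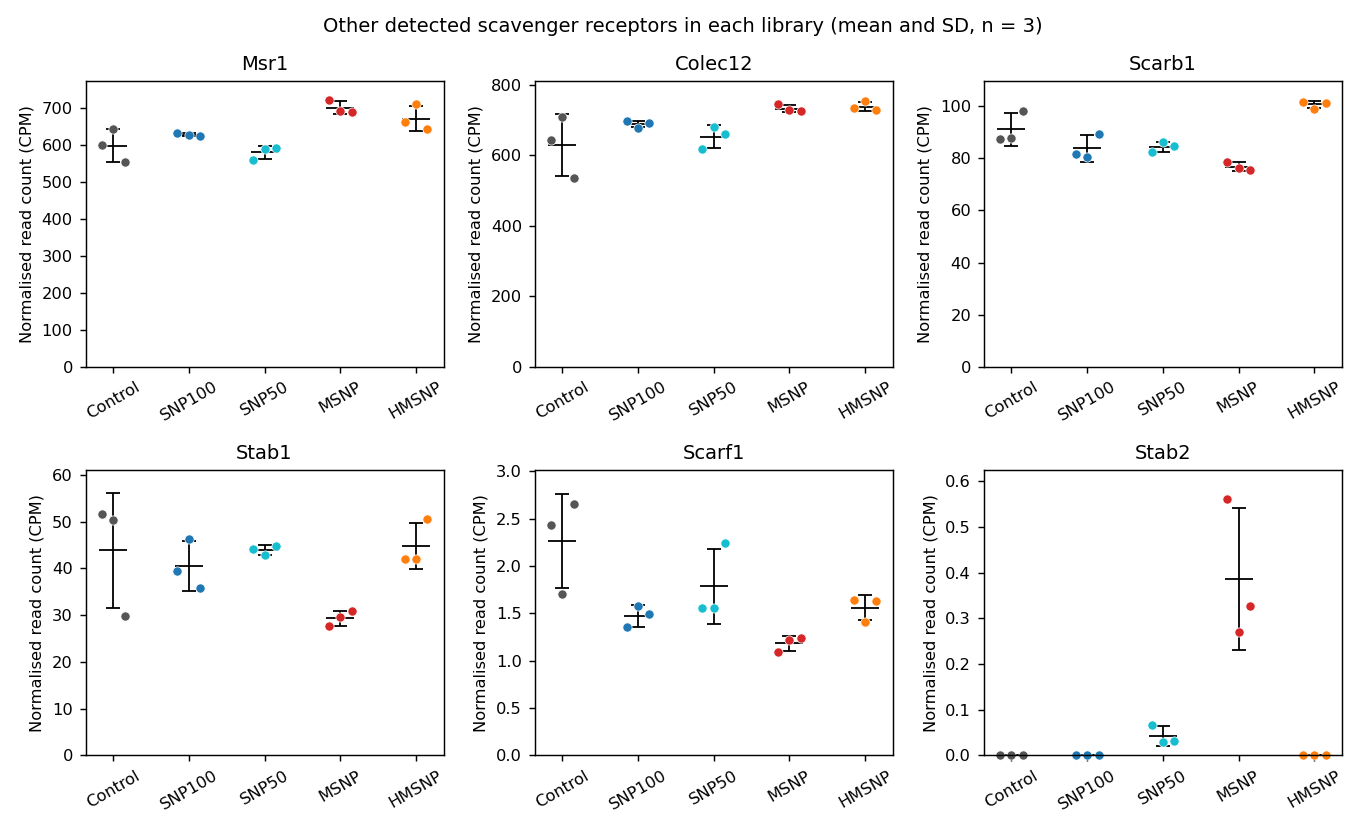
Normalised read count (CPM, y axis from 0) of the 6 other detected receptors in each library by group; points are libraries, the horizontal mark is the mean and the bars are SD (n = 3). The group means of Msr1 and Colec12 spanned 0.27 and 0.24 on the log2 scale, Scarb1 was lowest in MSNP and highest in HMSNP, and Stab2 was above 0 only in MSNP (10 to 17 counts) and SNP50 (1 or 2 counts).

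Counted over the 7 receptors measured in every library, the calls at an edgeR adjusted p under 0.05 were 2 in SNP100 (Olr1 and Cd36, both lower), where 0.912% of all genes tested were called, and the same 2 in SNP50, where 1.41% were. In MSNP 6 of the 7 were called, 1 higher (Msr1) and 5 lower (Olr1, Cd36, Scarb1, Scarf1 and Stab1), with Stab2 higher besides, beside 22.8% of all genes. In HMSNP 2 were called (Cd36 higher, Olr1 lower) beside 5.16% of all genes. Between HMSNP and MSNP 4 of the 7 were called, all higher in HMSNP (Olr1, Cd36, Scarb1 and Stab1), with Stab2 lower besides, beside 20.2% of all genes. Between MSNP and SNP100 1 of the 7 was called (14.3%, Olr1 lower), with Stab2 higher besides, beside 17.9% of all genes. Between SNP50 and SNP100 no receptor was called and edgeR called 0% of genes, with 867 genes at an unadjusted p under 0.05 and 1 gene called by DESeq2.

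Over the 7 receptors the median log2 fold change was -0.12 for SNP100 and -0.11 for SNP50, against -0.02 and -0.00 over all genes. For MSNP it was -0.49 and for HMSNP 0.15, against -0.05 and -0.04. The macrophage marker sum was also lower in MSNP, mostly through Lyz2 and Csf1r, while Fcgr3, Ptprc and Adgre1 were not lower, and the part of these markers in the values was not tested. Between HMSNP and MSNP the median was 0.39, against 0.00 over all genes. The receptors were chosen with earlier results of these data known, so the counts describe them and nothing more.

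**Figure D4:**
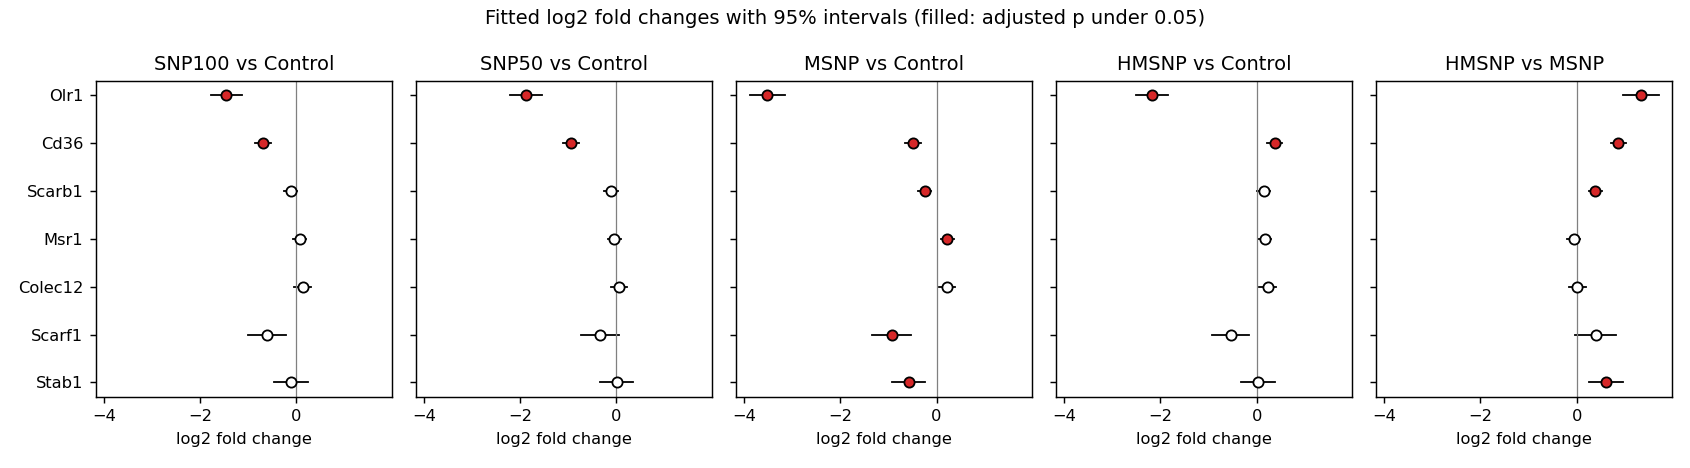
Fitted log2 fold changes (x axis) of the 7 receptors measured in every library, in 5 comparisons; points are edgeR estimates, bars are 95% intervals and filled points passed an adjusted p of 0.05. Olr1 was called in all 5 panels, while Cd36 was below 0 in SNP100, SNP50 and MSNP and above 0 in HMSNP.

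A list of 21 other scavenger receptors, of which 14 were tested, was described in the same way. In SNP100 0 were higher and 1 lower (0.912% of all genes called), in SNP50 0 higher and 2 lower (1.41%), in MSNP 3 higher and 2 lower (22.8%), and in HMSNP 3 higher and 1 lower (5.16%). Between HMSNP and MSNP 5 were higher and 2 lower (20.2% of all genes called), between MSNP and SNP100 4 higher and 3 lower (17.9%), and between SNP50 and SNP100 none was called in edgeR. The median log2 fold change of the 14 was -0.09 for SNP100, 0.01 for SNP50, -0.07 for MSNP and 0.34 for HMSNP, against -0.02, -0.00, -0.05 and -0.04 over all genes. For HMSNP against MSNP it was 0.49 (all genes 0.00) and for MSNP against SNP100 -0.06 (all genes -0.03).

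Clec7a, which encodes the beta-glucan receptor dectin-1, had 13.3, 11.9 and 13.8 CPM in Control, 9.34, 9.66 and 9.25 in SNP100, 7.93, 9.07 and 8.29 in SNP50, 5.39, 5.72 and 4.77 in MSNP and 19.5, 21.8 and 20.1 in HMSNP. It was lower than Control in SNP100, SNP50 and MSNP and higher in HMSNP, as Cd36 was. The log2 values were -0.47 (edgeR adjusted p = 0.0202), -0.62 (0.00286), -1.30 (5.58e-08) and 0.66 (0.000372). The SNP100 call of Clec7a was lost without any one of the SNP100 libraries, without Control replicate 1 and with the length correction (edgeR adjusted p = 0.0788 to 0.0921). Cd44, the hyaluronan receptor, was 355 ± 35.5 CPM in Control, 247 ± 12.3 in SNP50 (-0.52, edgeR adjusted p = 0.00286) and 503 ± 21.2 in HMSNP (0.50, adjusted p = 0.00100), with -0.01 in MSNP (adjusted p = 0.946).

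Cxcl16, a transmembrane chemokine that also binds oxidised lipoprotein, was 186 ± 32.1 CPM in Control, 71.3 ± 2.48 in MSNP (log2 fold change -1.38, edgeR adjusted p = 2.95e-08) and 130 ± 2.80 in HMSNP (-0.52, adjusted p = 0.00352). Cd68, the lysosomal glycoprotein macrosialin, was higher in MSNP at 1536 ± 29.99 CPM against 957 ± 36.6 CPM in Control (0.68, edgeR adjusted p = 1.01e-06). Mrc1, the mannose receptor, was low in Control (0.463 ± 0.193 CPM) and 1.79 ± 0.256 CPM in MSNP (1.96, edgeR adjusted p = 0.000116).

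**Figure D5:**
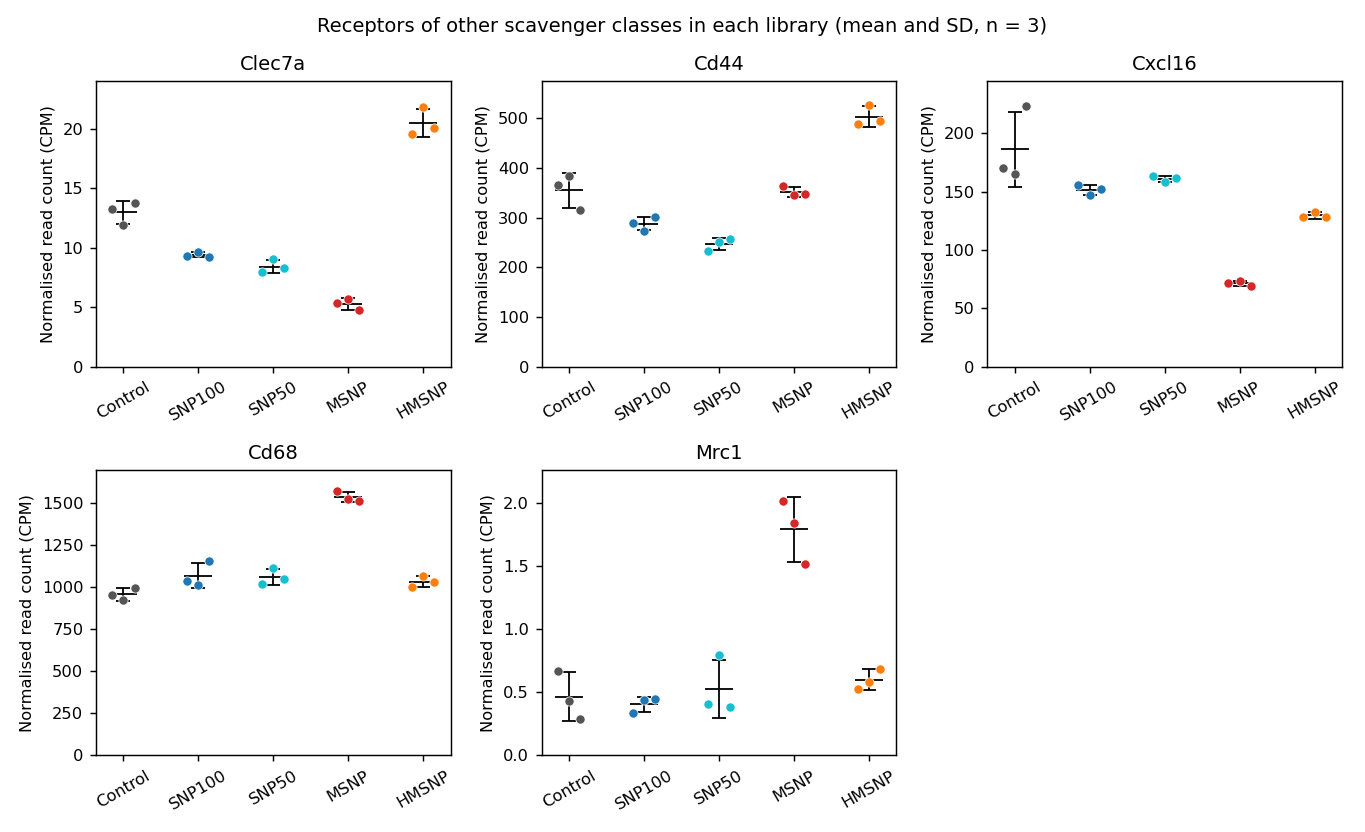
Normalised read count (CPM, y axis from 0) of 5 receptors of other scavenger classes in each library by group; points are libraries, the horizontal mark is the mean and the bars are SD (n = 3). Clec7a was between 4.77 and 5.72 CPM in MSNP and between 19.5 and 21.8 CPM in HMSNP, while Cd68 and Mrc1 were highest in MSNP.

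Of 20 genes that regulate scavenger receptors or work with them, 18 were tested. In SNP100 and SNP50 1 was higher and 0 lower (0.912% and 1.41% of all genes called), in MSNP 7 were higher and 4 lower (22.8%), and in HMSNP 2 were higher and 0 lower (5.16%). Between HMSNP and MSNP 4 were higher and 6 lower (20.2%), between MSNP and SNP100 5 higher and 2 lower (17.9%), and between SNP50 and SNP100 none was called in edgeR. The median log2 fold change of the 18 was 0.05 for SNP100, -0.00 for SNP50, 0.06 for MSNP and 0.17 for HMSNP, against the same all-gene medians. For HMSNP against MSNP it was -0.07 and for MSNP against SNP100 0.08. Fabp4, a fatty acid carrier whose gene is a PPARγ target, had 0.304, 0.173 and 0.390 CPM in Control and 9.12, 10.0 and 9.04 CPM in MSNP. Its log2 fold change was 4.99 in MSNP (edgeR adjusted p = 3.04e-10), 1.51 in SNP100 (0.0113) and 1.62 in SNP50 (0.00709), with at most 15 reads in any control library. Without SNP100 replicate 3 the SNP100 call was lost (edgeR adjusted p = 0.0516). In HMSNP it was 0.42 (edgeR adjusted p = 0.442).

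Pparg, the nuclear receptor that activates Cd36, was 0.191 ± 0.0861 CPM in Control and 0.538 ± 0.0800 CPM in MSNP (1.48, edgeR adjusted p = 0.0109), while Cd36 itself was lower there. Tlr2, which signals together with CD36, was lower in MSNP, at 146 ± 1.45 against 396 ± 25.6 CPM (-1.44, edgeR adjusted p = 1.92e-10). Nfe2l2, encoding the antioxidant regulator NRF2, was higher in MSNP (0.89, edgeR adjusted p = 4.96e-09) and HMSNP (0.23, adjusted p = 0.0170, not called without HMSNP replicate 2 or 3). Lpl, the lipoprotein lipase, was 1638 ± 2.36 CPM in HMSNP against 880 ± 28.6 CPM in Control (0.90, edgeR adjusted p = 9.09e-07), and it was lower in MSNP (-0.76, adjusted p = 3.20e-07).

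Among the genes whose levels over the 15 libraries were most like those of Olr1, by the root mean square difference of centred log2 CPM among 11539 genes, were Sec16b (0.475), Spsb1 (0.525), Tmeff1 (0.544) and Ccng2 (0.548), where Olr1 itself had an SD of 1.13. Each of these had log2 fold changes below 0 with every particle, but only Tmeff1 was called in all of them. Its values were -0.37 (SNP100), -0.66 (SNP50), -1.92 (MSNP) and -0.94 (HMSNP). Most like Cd36 were Cd44 (0.197), Ifi204 (0.208), Clec4n (0.219), Gclm (0.225) and Arrdc3 (0.227), where Cd36 had an SD of 0.483. Arrdc3 was -0.72, -0.64, -0.59 and 0.78 in the same order, and of these genes only Arrdc3 was called in each. Cd44 and Clec4n were -0.01 and -0.02 in MSNP, and Gclm was -0.05 in HMSNP, none called. These are descriptions over libraries that share their groups, with no test.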

How the data were processed

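The authors deposited 1 table of raw counts, unnormalised, for 57186 Ensembl genes in 15 libraries; per the submitters' processing notes, cutadapt 1.16, STAR 2.7.9a and featureCounts 1.6.3 were used, and the study mapped reads to GRCm39. Libraries were poly(A)-selected with a directional kit, and the strand setting and annotation of the counting are not given in the sources used here. Symbols, positions and lengths were taken from GENCODE vM39, which held 56630 identifiers, and promoters from RefSeq (GRCm38.p6). Genes with a summed count of at least 10 were tested with edgeR 4.0.16 (R 4.3.3; TMM, quasi-likelihood, 1 model of all 15 libraries, Benjamini-Hochberg adjustment over the 19839 genes tested, calls at 0.05), a script tested on simulated data. CPM used TMM library sizes. Libraries were grouped by their labels, and the 7 comparisons are those named in the text. Alternatives were DESeq2 1.42.0, other normalisation and filters, a gene length offset (lowess span 0.3), only the 6 libraries, a replicate block and leaving out each library. The receptors and lists were chosen with earlier results of these data known. Named genes were the receptors, up to 4 called genes per list and comparison with Control with the largest fold changes, and the 5 genes most like Olr1 and Cd36. Of the genes this rule names, 2 are not reported here.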

Additional observations from a re-analysis of the deposited data

How the results depend on the processing

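Over 22 alternatives, 1221 fold changes of the receptors were recomputed: 1181 stayed on the same side of the threshold, of which 21, called in neither analysis, changed sign, 20 lost and 20 gained a call, and no called value reversed. With only the 6 libraries of each comparison fitted, the receptors called were 0 in SNP100, 0 in SNP50, 4 in MSNP, 1 in HMSNP and 6 between MSNP and SNP100; fewer samples entered these fits. The length offset left 1 in HMSNP. With 1 library left out, the HMSNP count was 1 to 5, lowest without HMSNP replicate 2 and highest without Control replicate 2. The count between MSNP and SNP100, Stab2 included, was 2 to 5 (highest without Control replicate 3). Between SNP50 and SNP100 it was 0 to 1 (highest without Control replicate 3), and the cause was not tested. Over all genes, the 181 calls for SNP100 became 1012 and the 280 for SNP50 became 3713 without Control replicate 3, and the 1024 for HMSNP became 4940 without Control replicate 2. DESeq2 called 496, 680 and 1945 genes there, and the 6-library fits 0, 1 and 77, with 2257 for MSNP (4527 as reported), 7142 between HMSNP and MSNP (4010) and 7142 between MSNP and SNP100 (3549). The length offset called 296 for SNP100, 502 for SNP50 and 1471 for HMSNP, and for SNP50 no filter gave 185. Without HMSNP replicate 2 there were 493 calls for HMSNP. Without Control replicate 3, of 19611 genes, 6483 were called between MSNP and SNP100 and 85 between SNP50 and SNP100.

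The 2 further lists were recomputed the same way, a choice made after seeing the data. With only the 6 libraries, the other scavenger receptors called were 0 in SNP100, 0 in SNP50 and 0 in HMSNP, and the regulators and partners 0 in SNP100, 0 in SNP50, 7 in MSNP, 1 in HMSNP, 16 between HMSNP and MSNP and 13 between MSNP and SNP100. The Clec7a, Cd44, Cxcl16, Fabp4 and Nfe2l2 calls in SNP100, SNP50 and HMSNP were all lost there, and that of Lpl was not. DESeq2 called 3 other receptors in SNP100 and, of the regulators, 2 in SNP100, 3 in SNP50 and 6 in HMSNP. The stricter filter called 2 regulators in SNP50 and 4 in HMSNP, and the length offset 2 in SNP100, 2 in SNP50 and 4 in HMSNP. Of all genes, the stricter filter called 409 of 14284 in SNP50 and 1281 in HMSNP. The length offset called 296 of 19839 in SNP100, 502 in SNP50 and 1471 in HMSNP. Leaving out 1 library gave 0 to 2 other receptors in SNP100, 2 to 5 in SNP50, 4 to 7 between MSNP and SNP100 and 0 to 1 between SNP50 and SNP100. For the regulators it gave 1 to 4 in SNP100, 1 to 8 in SNP50, 1 to 9 in HMSNP and 6 to 11 between MSNP and SNP100. Among the regulators the highest counts came without Control replicate 3, or for HMSNP without Control replicate 2. Among the other receptors the highest for SNP50 came without Control replicate 3, those for SNP100 without Control replicate 2 or 3, and the lowest between MSNP and SNP100 without MSNP replicate 1 or 2. Of all genes, 325 were called for SNP100 without Control replicate 2. Between MSNP and SNP100, 2629 were called without MSNP replicate 1 and 2668 without MSNP replicate 2.

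Pairing was unclear: deviations of same-numbered libraries correlated at -0.52 to 0.57 (10 of 30 pairs above 0.1), with no others compared. With the numbers as a replicate block, the receptors called were 2 in SNP100, 2 in SNP50, 7 in MSNP, 2 in HMSNP, 5 between HMSNP and MSNP, 2 between MSNP and SNP100 and 0 between SNP50 and SNP100, as without the block, while the genes called for SNP50 fell from 280 to 180. The stricter count filter gave no value for Stab2. Few reads support the values of Stab2, Scarf1, Fabp4, Pparg and Mrc1.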
